A study of Mus musculus with 6 samples.

Results

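Smooth muscle cells wrap arteries and arterioles, and pericytes sit on capillaries and sinusoids. *Acta2* (smooth muscle alpha-actin), *Myl9* (the regulatory light chain of smooth muscle and non-muscle myosin) and *Mcam* (melanoma cell adhesion molecule, a surface protein of pericytes and endothelial cells) were followed over bone marrow (BM) libraries of *Phc2* knockout and wild-type mice. These 3 genes were chosen from the 621 genes of the study's table of selected genes because they are contractile and perivascular genes, and the table itself holds genes picked for a difference between KO and WT libraries. In contractile cells, actin filaments slide on myosin once the regulatory light chain is phosphorylated, and caldesmon restrains that movement on the thin filament. The contractile genes are not restricted to vessels, since *Myl9* is also a myosin light chain of megakaryocytes and platelets and *Acta2* appears in activated fibroblasts. In human BM, *MCAM* also marks skeletal progenitors around sinusoids.

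The series comprises poly(A) mRNA-seq of BM cells taken in bulk from femurs and tibias of mice aged 8 weeks on a C57BL/6 background. The 3 KO libraries (replicates 4, 8 and 9, written KO4, KO8 and KO9) came from mice named *Phc2* knockout, and the 3 WT libraries (replicates 1, 3 and 7, written WT1, WT3 and WT7) from wild-type mice, both bred from *Phc2* heterozygotes. The Phc2 protein belongs to Polycomb repressive complex 1, and the mice lack it in the whole body, not in 1 cell type. The titles and source names call the KO samples knockout, whereas their genotype field reads *Phc2*+/- (heterozygote); they are called KO here by title, and the level of *Phc2* itself, which would check the label, was not analysed here. No label ties a library to a particular mouse, so the spread between libraries may be partly technical. Values are FPKM (fragments scaled to exon length and to how many fragments each library had mapped), which can be compared between genes because they are per length. The depth of the libraries is unknown, since only FPKM was used.

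The libraries fell into 2 kinds that cut across genotype. *Xist*, the RNA that coats the inactive X chromosome in female cells, was at 74.6 FPKM in KO4, against 113 in WT1 and 98.2 in WT3, and at 0.0192 FPKM or less in KO8, KO9 and WT7. The labels used here give no sex. The 3 libraries with *Xist* were all above the other 3 for 175 of the 621 genes (28.2%) and all below for 59 (9.5%). Because 1 KO but 2 WT libraries held *Xist*, genotype and this division are partly confounded, and values within each kind are given beside the pooled ones. Markers of BM cells were present in every library, such as the platelet chemokine *Ppbp*, at 7.78 to 24.6 FPKM in KO and 11.6 to 32.5 FPKM in WT libraries.

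The 3 genes lie on different chromosomes of the mouse genome (RefSeq, GRCm38.p6, the assembly also called mm10). *Acta2* spans chr19:34240336-34255585 on the minus strand, *Myl9* chr2:156775408-156781657 on the plus strand and *Mcam* chr9:44134658-44142727 on the plus strand. *Mcam* overlaps the antisense gene *Gm10687* by 17 bases, and whether counting used strand was not given in the sources used here. None of the distinct stretches of 100 bases in the annotated transcripts of the 3 genes (2096 for *Acta2*, 1293 for *Myl9* and 3722 for *Mcam*) occurred in a transcript of another gene.

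Smooth muscle genes are known targets of serum response factor, which binds the CArG box (2 C, then 6 A or T, then 2 G, a motif that reads alike on both strands). The boxes of *Acta2* and *Myl9* are shown because they separate the contractile pair from *Mcam* by sequence, whereas the levels below group the genes otherwise. In the RefSeq promoter windows (250 bases before to 50 after the start used in that table, found for 3 of 3 genes), *Myl9* held 1 strict box, a pattern found in 535 of 32851 promoters (1.63%). When 1 G or C was allowed among the middle bases, *Acta2* and *Myl9* held 2 boxes each, as did or exceeded 270 promoters (0.822%), and at least 1 such box was in 3280 promoters (9.98%). No box of either kind was in the *Mcam* window. Capitals mark the boxes, each with 10 bases on either side, on the strand of the gene. The coordinates in brackets are those of each whole stretch of 30 bases, whereas the distances upstream are those of the box alone. The *Acta2* boxes lie 84 to 75 bases upstream of the start (chr19:34255438-34255467, minus strand) and 34 to 25 bases upstream (chr19:34255388-34255417, minus strand), inside the outer bounds of the gene given above. The *Myl9* boxes lie 161 to 152 bases upstream (chr2:156775293-156775322, plus strand, the strict one) and 99 to 90 bases upstream (chr2:156775355-156775384, plus strand).
Acta2 distal box: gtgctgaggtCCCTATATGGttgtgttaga
Acta2 proximal box: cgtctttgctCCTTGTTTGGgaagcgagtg
Myl9 distal box: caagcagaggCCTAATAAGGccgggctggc
Myl9 proximal box: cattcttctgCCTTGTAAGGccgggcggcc

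*Acta2* was at 2.97, 4.45 and 3.75 FPKM in KO4, KO8 and KO9, against 3.04, 4.26 and 7.89 FPKM in WT1, WT3 and WT7. WT7 stood above the other 5 libraries, the lowest values were in KO4 and WT1, and the KO range lay almost wholly inside the WT range. The KO mean was 3.72 ± 0.740 FPKM and the WT mean 5.06 ± 2.52 FPKM (SD, n = 3 each), a log2 fold change of -0.29 (SE 0.47, on the log2(FPKM + 1) scale). Here and below the SE comes from the limma fit of all selected genes, which draws each gene's variance toward their common trend. It is therefore not the error given by that gene's own libraries alone, unlike the SD. Without WT7 the log2 fold change was 0.02, so the sign of the difference rested on that library. In bulk BM, fewer cells of a type and less RNA per cell cannot be told apart.

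*Myl9* was at 7.34, 2.21 and 2.25 FPKM in KO4, KO8 and KO9, against 6.79, 8.18 and 3.31 FPKM in WT1, WT3 and WT7. The libraries formed a high trio (KO4, WT1 and WT3) and a low trio (KO8, KO9 and WT7), so 1 KO library lay among the WT values. The KO mean was 3.93 ± 2.95 FPKM and the WT mean 6.09 ± 2.51 FPKM (SD, n = 3 each), with a log2 fold change of -0.61 (SE 0.51). Without KO4 the value was -1.06, and both remaining KO libraries lay below all WT libraries. KO and WT were then without overlap for 146 of the 621 genes.

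*Mcam* was at 4.34, 1.62 and 2.40 FPKM in KO4, KO8 and KO9, against 3.76, 3.68 and 1.49 FPKM in WT1, WT3 and WT7. Its highest library was KO and its lowest WT, with the same high and low trios as *Myl9*. The KO mean was 2.78 ± 1.40 FPKM and the WT mean 2.98 ± 1.29 FPKM (SD, n = 3 each), and the log2 fold change of -0.08 (SE 0.47) was smaller than its error. The sign turned under quantile normalization (0.08) and under scaling to a common median (0.04). In order of mean level, *Myl9* was above *Acta2* and *Acta2* above *Mcam* in both KO and WT, but the SDs of neighbouring genes overlapped in both.

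**Figure D1:**
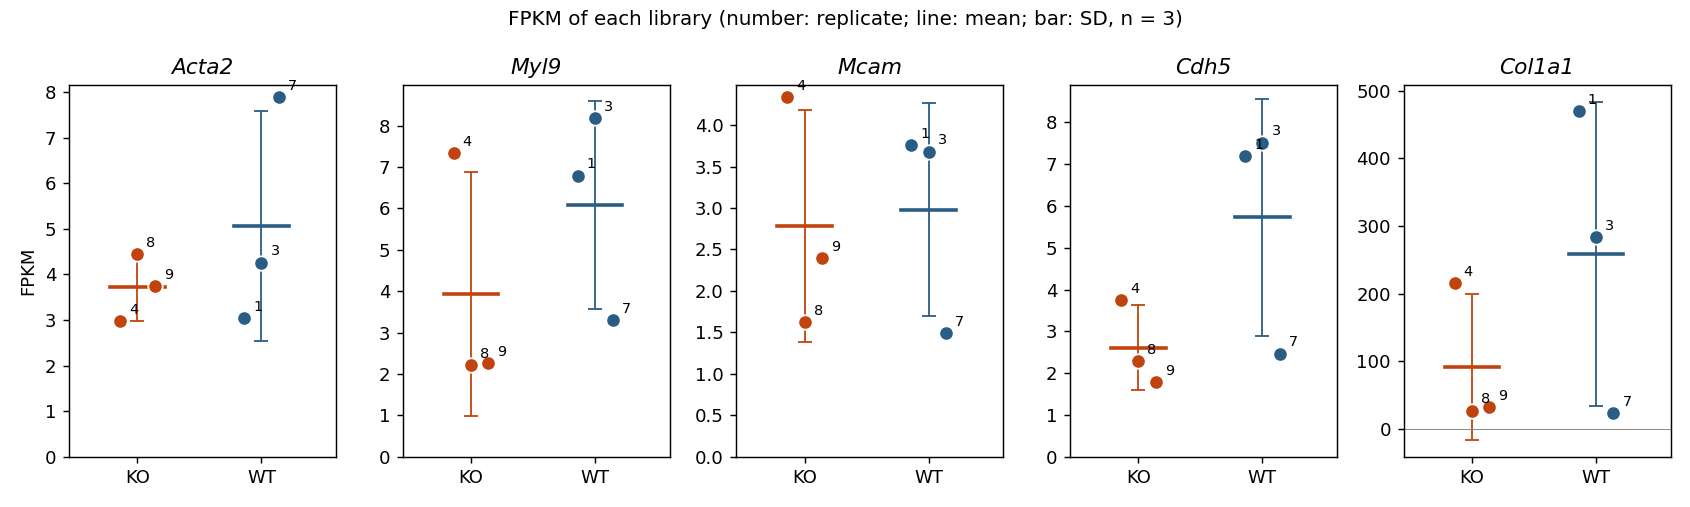
FPKM (vertical axes, linear from 0, or just below it where an error bar reaches there) of *Acta2*, *Myl9*, *Mcam*, *Cdh5* and *Col1a1* in each of the 3 KO and 3 WT libraries; points are libraries with their replicate number, lines are means and bars are SDs. WT7 is the highest library for *Acta2*, whereas KO4, WT1 and WT3 are the 3 highest libraries for the other 4 genes, and the genotypes overlap for all 5.

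The question the design poses is whether these genes differ between KO and WT marrow. The members were selected on this contrast, so their own values are a description. The table holds genes with at least a 2-fold difference between a KO and a WT library in 1 or more of 9 such pairs on the authors' normalized log2 scale, and all 621 genes meet that rule. *Acta2* met it in 1 pair (KO4 below WT7, 2.33-fold) and *Mcam* in 1 pair (KO4 above WT7, 2.01-fold). Both were therefore in the table through WT7, in opposite directions, and 192 of the 621 genes had likewise exactly 1 such pair. *Mcam* was just inside the threshold, since only 11 genes had a smaller largest fold, all of them at 2-fold or just above. *Myl9* met it in 4 pairs, all with KO lower, the largest being KO9 below WT3 (2.78-fold).

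Over all 621 genes, limma with Benjamini-Hochberg adjustment called 0 genes (0%) between KO and WT, with a smallest adjusted p of 0.517. At an unadjusted p under 0.05 it gave 8 higher and 6 lower genes, none of them *Acta2*, *Myl9* or *Mcam*. All 621 genes were picked on this same contrast. The calls here and in the lists below are therefore descriptive and do not show that a gene is unchanged. KO and WT libraries did not overlap for 45 genes (7.25%), and for 0 of the 3. That count was 146 without KO4, 117 without KO8 and 415 without WT7. All 3 had a lower mean in KO, as had 384 of all genes (61.8%). Over all genes the log2 fold change had a median of -0.35, so relative to it the differences were 0.06 for *Acta2*, -0.26 for *Myl9* and 0.28 for *Mcam*. Quantile normalization and median scaling moved that median by 0.17 and 0.13 on the log2 scale. The median and both scalings were taken from the 621 selected genes alone. Values relative to them are therefore not corrected for an offset of the whole library.

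Within libraries alike in *Xist*, the mean differences were negative for *Acta2* and *Myl9* and positive for *Mcam*. *Acta2* was lower in KO in all 4 such pairs, by a log2 difference of -0.22 among libraries with *Xist* (KO4 against WT1 and WT3) and -0.81 among those without (KO8 and KO9 against WT7). WT7, the highest library for *Acta2*, is the only WT library among those without *Xist*, and KO4 was close to WT1 (2.97 against 3.04 FPKM). *Mcam* was higher in KO in all 4 pairs, by log2 differences of 0.18 and 0.26, with KO8 close to WT7 (1.62 against 1.49 FPKM). *Myl9* was lower in KO in 3 of 4 pairs, with log2 differences of -0.02 among libraries with *Xist* and -0.41 among those without. Of all genes, 79 (12.7%) were lower in KO in all 4 pairs and 75 (12.1%) higher, so neither pattern was rare in the table. With a term for *Xist* in the limma model the log2 fold changes were -0.51 (SE 0.28) for *Acta2*, -0.22 (SE 0.26) for *Myl9* and 0.22 (SE 0.23) for *Mcam*, the last with its sign turned.

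Whether the genes follow the bone and vessel genes was asked with *Col1a1* (the type I collagen chain that osteoblasts secrete into bone) and *Cdh5* (the cadherin of endothelial junctions). *Col1a1* was at 216, 26.6 and 31.6 FPKM in KO4, KO8 and KO9, against 471, 284 and 23.0 FPKM in WT1, WT3 and WT7. *Cdh5* was at 3.75, 2.30 and 1.78 FPKM in KO4, KO8 and KO9, against 7.19, 7.52 and 2.47 FPKM in WT1, WT3 and WT7. For both genes KO4, WT1 and WT3 were the 3 highest libraries. *Cdh5* overlaps the antisense gene *Gm29682* by 4249 bases, so its reads may not all be its own.

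The order of the libraries in these genes was then compared with that in *Acta2*, *Myl9* and *Mcam*. The 6 libraries form 15 pairs, and a gene that orders every pair as another does scores 15. *Myl9* ordered 13 pairs as *Cdh5* and 11 as *Col1a1*, and *Mcam* ordered 9 as *Cdh5* and 13 as *Col1a1*. *Acta2* ordered 7 pairs as *Cdh5*, 3 as *Col1a1*, 5 as *Myl9* and 1 as *Mcam*. *Myl9* and *Mcam* ordered 11 pairs alike. At least 11 pairs were ordered as *Myl9* by 167 genes (26.9%) and as *Mcam* by 168 (27.1%), so a count of 11 was common in the table. Over the other 620 genes the median was 7 pairs for *Acta2*, 8 for *Myl9* and 9 for *Mcam*, so the counts of *Acta2* and of *Mcam* against *Cdh5* were those of a typical gene of the table. At least 13 pairs were ordered alike by 12 genes (1.94%) for *Acta2*, 62 (10%) for *Myl9* and 50 (8.06%) for *Mcam*, and 3 or fewer by 54 (8.71%) for *Acta2*, 41 (6.61%) for *Myl9* and 45 (7.26%) for *Mcam*. These counts describe 6 libraries of 2 kinds and carry no test. The libraries with *Xist* were all above the others for *Myl9* and *Mcam* (2 of the 3 genes, against 28.2% of all genes). *Acta2* overlapped, since WT3 with *Xist* (4.26 FPKM) was above KO9 without it (3.75 FPKM). In *Cdh5* and *Col1a1* the libraries with *Xist* were also all above the others. Each of these genes therefore shares every pair of a library with *Xist* and a library without with *Myl9* and *Mcam*, through that division alone. The 9 pairs shared by *Mcam* and *Cdh5* were all of this kind. Among libraries alike in *Xist*, *Mcam* and *Cdh5* ordered every pair in reverse.

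Following in order did not mean following in size. From its lowest to its highest library *Col1a1* spanned 20.5-fold and *Cdh5* 4.22-fold, against 3.71-fold for *Myl9*, 2.90-fold for *Mcam* and 2.66-fold for *Acta2*. The root mean square (RMS) difference between profiles of log2(FPKM + 1), each centred on its own mean, was 0.30 between *Myl9* and *Cdh5* and 0.44 between *Mcam* and *Cdh5*. Without KO4 the value for *Myl9* and *Cdh5* was 0.15. Between *Myl9* and *Mcam* it was 0.34, or 0.22 without KO9. Against *Col1a1* it was 1.198 for *Myl9*, 1.38 for *Mcam* and 2.05 for *Acta2*. Among the 620 other genes *Cdh5* ranked 87 in likeness to *Myl9*, 174 to *Mcam* and 488 to *Acta2*, whereas *Col1a1* ranked 575, 605 and 612 for the same genes.

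**Figure D2:**
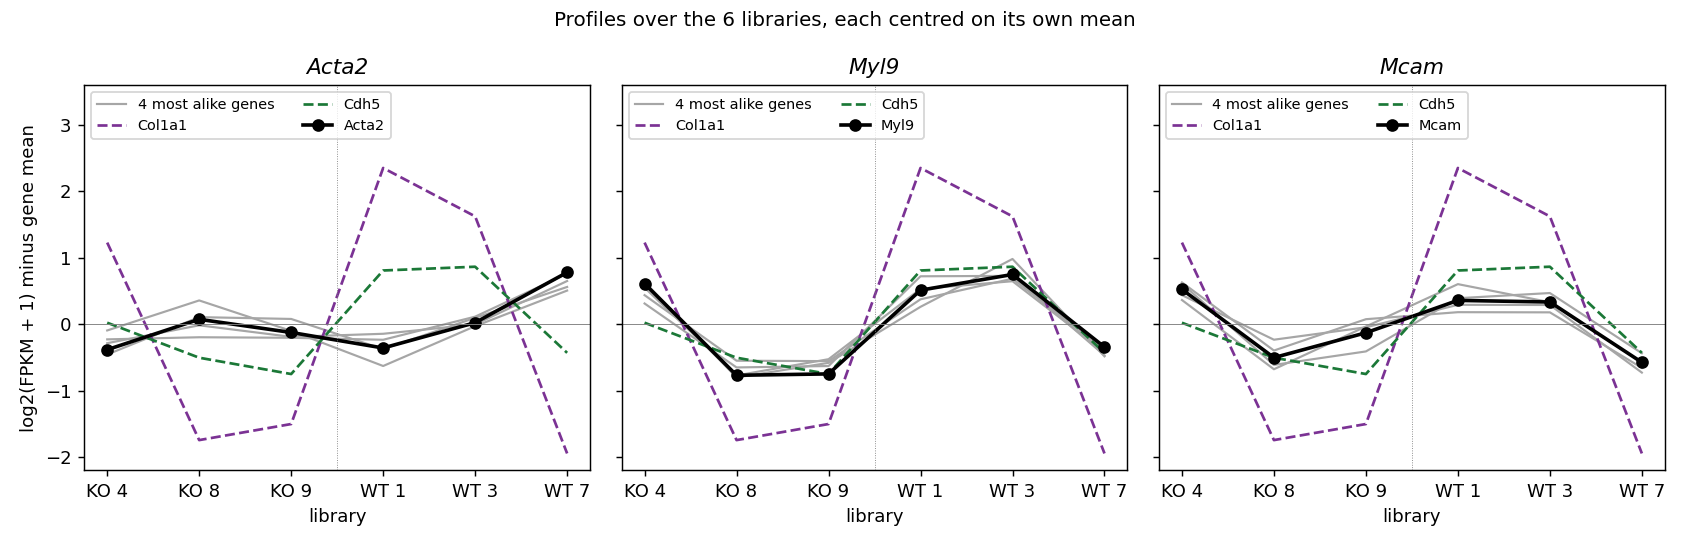
log2(FPKM + 1) minus the gene's own mean (vertical axis) over the 3 KO and 3 WT libraries (horizontal axis) for *Acta2*, *Myl9* and *Mcam* (black), the 4 genes most alike to each (grey), *Col1a1* and *Cdh5* (dashed). *Myl9* and *Cdh5* differ by an RMS of 0.30 (0.15 without KO4), *Col1a1* has the same high libraries with a 20.5-fold span, and *Acta2* is highest in WT7, where *Col1a1* is lowest.

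Ratios within a library remove any factor common to its genes. *Acta2* to *Myl9* was 0.404, 2.02 and 1.66 in KO4, KO8 and KO9, against 0.448, 0.521 and 2.39 in WT1, WT3 and WT7, a span of 5.90-fold. *Acta2* thus exceeded *Myl9* in the 3 libraries without *Xist* and was under it in the 3 with *Xist*, in both genotypes. *Acta2* to *Mcam* spanned 7.72-fold and was highest in WT7 (5.29). *Mcam* to *Myl9* was 0.591, 0.734 and 1.06 in KO4, KO8 and KO9, against 0.554, 0.450 and 0.452 in WT1, WT3 and WT7. All 3 KO libraries were above all 3 WT libraries in this ratio. *Mcam* to *Cdh5* was likewise without overlap, at 1.16, 0.705 and 1.35 in KO4, KO8 and KO9, against 0.523, 0.489 and 0.605 in WT1, WT3 and WT7. These were 2 of 15 ratios computed, were found after the values were seen and have no test. How often ratios of other genes of the table separate KO from WT was not computed. *Myl9* and *Cdh5* met the 2-fold rule of the table only with KO lower, and *Mcam* only with KO higher. The 3 genes were thus selected in the direction of these ratios. *Myl9* to *Cdh5* spanned 2.07-fold, and *Acta2* to *Col1a1* spanned 53.1-fold.

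**Figure D3:**
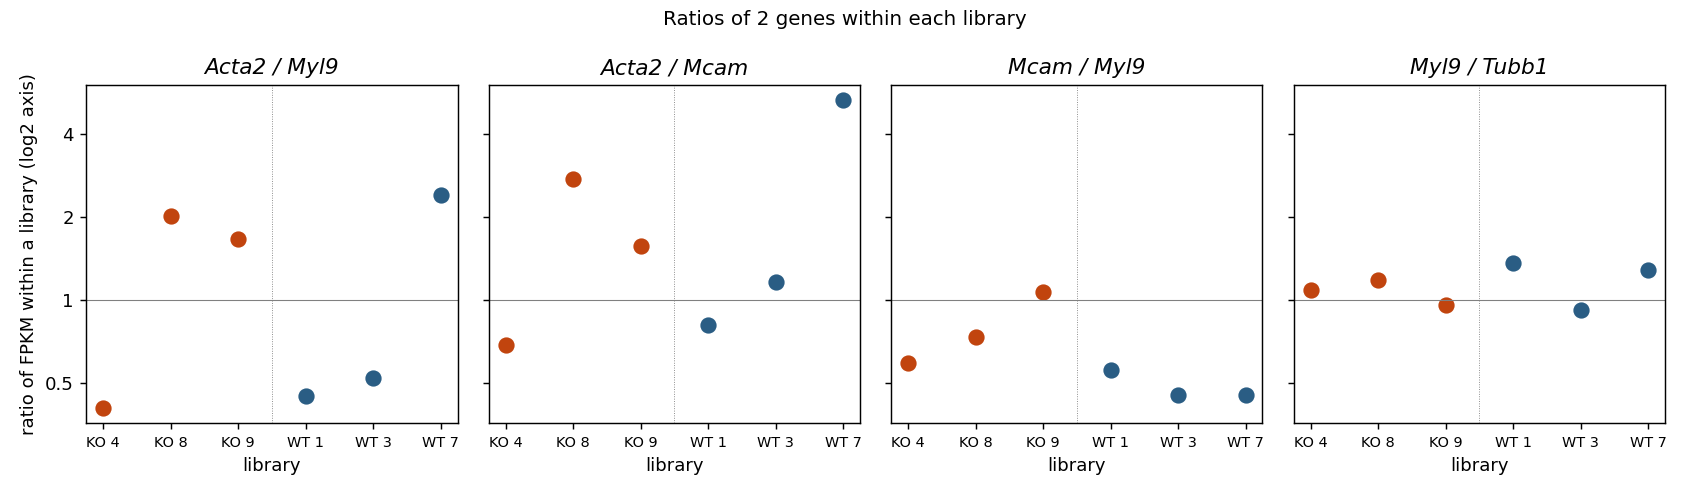
Ratio of the FPKM of 2 genes within each library (log2 vertical axis) for the 3 KO libraries (left) and 3 WT libraries (right). *Acta2* to *Myl9* runs between 0.404 and 2.39 and is above 1 only in KO8, KO9 and WT7, whereas *Myl9* to *Tubb1* stays between 0.918 and 1.35.

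The genes with the most similar profiles differed between the 3. For *Acta2* the 5 smallest RMS differences were those of *Ldhc* (a lactate dehydrogenase of male germ cells, 0.12), *Chil4* (a chitinase-like secreted protein, 0.13), *Lipg* (endothelial lipase, 0.15), *Pdzk1ip1* (a small membrane protein, 0.23) and *Cxcr1* (a chemokine receptor of neutrophils, 0.23). *Chil4* ordered all 15 pairs as *Acta2*, at 9.90, 15.1 and 14.8 FPKM in KO4, KO8 and KO9, against 10.5, 14.99 and 21.1 FPKM in WT1, WT3 and WT7. WT7 was the highest library for all 5. *Lipg*, though an endothelial lipase, was thus highest in a library that was low for *Cdh5*. *Ldhc* and *Lipg* were near 1 FPKM in the KO libraries, and *Cxcr1* was at 0.497 FPKM in WT1. At such levels the pseudocount of 1 narrows differences, so likeness to these genes depends on it. *Cxcr1* spanned 6.47-fold, against 2.66-fold for *Acta2*.

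*Myl9* was nearest to *Epas1* (a hypoxia-inducible transcription factor, 0.11), *Alox12* (the platelet lipoxygenase, 0.15), *Tubb1* (the beta-tubulin of megakaryocytes and platelets, 0.17) and *Cdh11* (a mesenchymal cadherin, 0.17). *Epas1* and *Tubb1* ordered all 15 pairs as *Myl9*. *Tubb1* was at 6.79, 1.88 and 2.35 FPKM in KO4, KO8 and KO9, against 5.01, 8.91 and 2.59 FPKM in WT1, WT3 and WT7. Within a library *Myl9* to *Tubb1* spanned 1.48-fold and *Myl9* to *Ppbp* 1.28-fold. By RMS difference, though not by order for each, the other 3 megakaryocyte genes of the table were farther from *Myl9* than *Cdh5* was (0.30). *Treml1* (a platelet surface receptor, named after its values were seen) was at an RMS difference of 0.35, *Gp1bb* (a subunit of the platelet receptor for von Willebrand factor) at 1.13 and *Thbs1* (thrombospondin, held in platelet granules and in matrix) at 1.22, and *Myl9* to *Gp1bb* spanned 12.5-fold. *Gp1bb* was at 17.0, 1.53 and 1.62 FPKM in KO4, KO8 and KO9, against 2.55, 2.80 and 14.2 FPKM in WT1, WT3 and WT7. Of its 2 high libraries, KO4 was also high for *Myl9* and WT7 was not. By order of the libraries, *Treml1* shared 14 of 15 pairs with *Myl9*, *Gp1bb* 12 and *Thbs1* 5, against 13 for *Cdh5*. The part of megakaryocytes in the *Myl9* level was not tested.

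*Mcam* was nearest to *Timd4* (a macrophage receptor for dying cells, 0.14), *C1qtnf6* (a secreted C1q-related protein, 0.14), *Sdc3* (a syndecan, 0.15), *Ckb* (the brain form of creatine kinase, 0.15) and *Fxyd1* (a regulator of the sodium pump, 0.15). *Timd4* and *Sdc3* ordered all 15 pairs as *Mcam*. *Sdc3* was at 27.2, 12.9 and 18.2 FPKM in KO4, KO8 and KO9, against 19.7, 19.7 and 10.6 FPKM in WT1, WT3 and WT7. Like *Mcam*, it had its highest value in KO4 and its lowest in WT7.

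Of 28 genes of the smooth muscle contractile apparatus, 3 were in the table, and defining genes such as *Myh11*, *Tagln* and *Cnn1* were not analysed here, so the presence of smooth muscle cells could not be checked with them. The third was *Cald1* (caldesmon), at 2.63, 0.898 and 1.03 FPKM in KO4, KO8 and KO9, against 3.33, 3.35 and 1.29 FPKM in WT1, WT3 and WT7. *Cald1* had the high and low trios of *Myl9*, ordered 14 of 15 pairs as *Myl9* and 6 as *Acta2*, and ranked 8 of 620 in likeness to *Myl9* (RMS difference 0.18). *Myl9* to *Cald1* spanned 1.37-fold. All 3 had lower means in KO, with a median log2 fold change of -0.54 against -0.35 over all genes, and 0 of 3 passed the limma test (0% of all genes).

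Of 19 pericyte and perivascular genes, 3 were in the table, and *Pdgfrb*, *Cspg4* and *Rgs5* were not analysed here. Besides *Mcam* they were *Kcnj8* and *Abcc9*, the pore and the regulatory subunit of the ATP-sensitive potassium channel of pericytes. *Kcnj8* was at 1.06, 0.323 and 0.417 FPKM in KO4, KO8 and KO9, against 2.18, 1.63 and 0.433 FPKM in WT1, WT3 and WT7. *Abcc9* was at 1.37, 0.311 and 0.348 FPKM in KO4, KO8 and KO9, against 2.49, 2.36 and 0.388 FPKM in WT1, WT3 and WT7. Both subunits were highest in WT1 and WT3, then in KO4, and lowest in KO8, whereas *Mcam* was highest in KO4 and lowest in WT7. Both ordered 11 of 15 pairs as *Mcam*, 13 as *Myl9* and 5 as *Acta2*. Among all other genes, 27.1% ordered at least 11 pairs as *Mcam* and 10% at least 13 as *Myl9*. All 3 pericyte genes had lower means in KO, with a median log2 fold change of -0.54, and 0 of 3 passed the test.

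Of 14 genes that control smooth muscle contraction, only *Agtr1a* (an angiotensin receptor) was in the table. It was at 5.33, 7.12 and 4.29 FPKM in KO4, KO8 and KO9, against 2.82, 2.84 and 5.45 FPKM in WT1, WT3 and WT7. WT1 and WT3 were its lowest libraries and WT7 lay among the KO values, with a log2 fold change of 0.51 (SE 0.46) that did not pass the test. *Agtr1a* ordered 10 of 15 pairs as *Acta2* and 4 each as *Myl9* and *Mcam*. In the pathway file that accompanied the table, vascular smooth muscle contraction held 7 genes, *Acta2*, *Myl9*, *Cald1* and *Agtr1a* among them. Its other genes are named after their values were seen: *Npr1* (a natriuretic peptide receptor), *Ramp2* (a partner of the adrenomedullin receptor) and *Pla2g4b* (a phospholipase). Of the 7, 6 had a lower mean in KO and 1 a higher mean, and 0 passed the test. *Myl9* was also placed in 7 other pathways, of which focal adhesion was the largest with 20 genes, *Acta2* also in apelin signaling with 7, and *Mcam* in none.

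Marker genes of other marrow cell types were compared with the 3 genes in the same way. At least 8 of 15 pairs were ordered as *Myl9* by 12 of 13 endothelial genes in the table, 14 of 14 osteoblast and osteocyte genes, 5 of 5 reticular stromal and adipocyte genes and 4 of 5 megakaryocyte genes, where 56% of all other genes reached that number. The counts for *Mcam* were the same, beside 64.2% of all other genes, and for *Acta2* they were 0 of 13, 0 of 14, 0 of 5 and 1 of 5, beside 33.4%. All 3 libraries with *Xist* were above the others for 12 of the 13 endothelial, 14 of the 14 osteoblast, 5 of the 5 reticular and adipocyte and 3 of the 5 megakaryocyte genes, against 28.2% of all genes. Any such gene orders every pair of a library with *Xist* and a library without as *Myl9* and *Mcam* do. That alone brings it past 8 pairs with *Myl9* and *Mcam* and keeps it under 8 with *Acta2*. The counts of pairs in these lists therefore largely restate the division by *Xist* and are not a separate result. The endothelial exception was *Ly6a*, and the one megakaryocyte gene that went with *Acta2* was *Thbs1*, with 13 pairs ordered alike. *Thbs1* was at 16.3, 25.4 and 28.4 FPKM in KO4, KO8 and KO9, against 20.5, 21.7 and 91.6 FPKM in WT1, WT3 and WT7, so that WT7 was again the highest.

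Summed over the lists, osteoblast genes ran between 132 and 728 FPKM in KO and between 122 and 1524 FPKM in WT libraries. Endothelial genes summed to between 53.7 and 88.0 FPKM in KO and between 47.3 and 109 FPKM in WT libraries. Reticular and adipocyte genes summed to between 32.4 and 77.5 FPKM in KO and between 29.4 and 75.6 FPKM in WT libraries, and megakaryocyte genes to between 38.5 and 67.8 FPKM in KO and between 60.2 and 122 FPKM in WT libraries. The highest megakaryocyte sum was in WT7, where *Thbs1* alone was at 91.6 FPKM, and without *Thbs1* the sums were 13.1 to 51.5 FPKM in KO and 30.8 to 49.3 FPKM in WT libraries. Of 17 skeletal muscle genes only *Cox6a2*, a muscle subunit of cytochrome oxidase, was in the table, at 6.63 to 12.5 FPKM in KO and 11.8 to 15.8 FPKM in WT libraries. The part of these other cell types in the levels of *Acta2*, *Myl9* and *Mcam* was not tested.

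**Figure D4:**
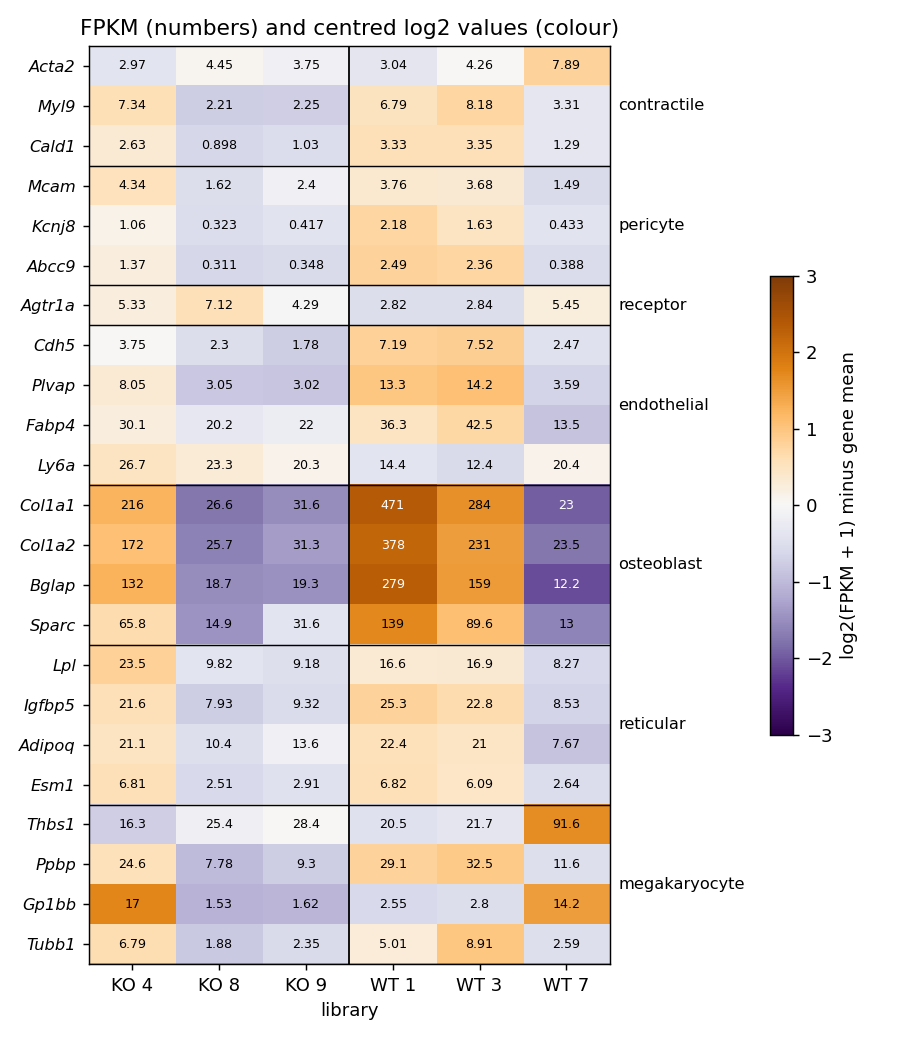
Each cell gives the FPKM of a gene (rows, grouped by list, up to 4 genes of the larger lists) in a library (columns, 3 KO then 3 WT), with colour for log2(FPKM + 1) minus the gene's mean. KO4, WT1 and WT3 are the high columns for *Myl9*, *Cald1*, the pericyte, osteoblast and reticular genes, while *Acta2* and *Thbs1* are highest in WT7 (7.89 and 91.6 FPKM) and *Agtr1a* is highest in KO8 (7.12 FPKM).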

How the data were processed

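By the methods of the study and the submitters' notes, the authors trimmed 100-base paired reads, aligned them to mm10 with HISAT2 v2.0.5 and estimated each library with StringTie v1.3.3b. The deposited FPKM values and the authors' normalized log2 values (a further normalization not given in the sources used here) cover 621 genes picked by the authors for a 2-fold difference in at least 1 of 9 pairs of libraries, so genes outside that selection were not analysed here. The table's fold columns and the pathway p-values were not used. Depth is unknown, which leaves the counting error of low FPKM values open.

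FPKM of 3 KO and 3 WT libraries was taken as log2(FPKM + 1), with a pseudocount of 1, for genes above 0 in at least 3 libraries. All genes were fitted with limma 3.58.1 in R 4.3.3 (eBayes with an intensity trend, Benjamini-Hochberg adjustment, threshold 0.05, two-sided), after the script had been tested on simulated data. Likeness of profiles was measured as the RMS difference of centred log2 values and as the number of 15 pairs of libraries ordered alike. Named genes were *Acta2*, *Myl9* and *Mcam*, *Col1a1*, *Cdh5* and *Xist*, the 5 genes most alike to each of the 3 without predicted genes (1 of them is not reported here), all listed contractile, pericyte and contraction genes, and up to 4 genes with the highest mean of each other list. The genes and lists were chosen with earlier results of these data known. Alternatives were quantile normalization, median scaling, a pseudocount of 0.1, a filter at a mean of 1 FPKM or none, the authors' log2 values, no intensity trend, a term for *Xist* above 1 FPKM and leaving out each library. Sequences came from RefSeq tables (GRCm38.p6) and antisense overlaps and transcripts from GENCODE.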

Additional observations from a re-analysis of the deposited data

How the results depend on the processing

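No paired analysis was possible because KO and WT share no replicate numbers. Leaving out each library in turn gave 0 to 1 genes called by limma (*Xist* without KO4 and *Atp6v0c-ps2* without KO9, both named after their values were seen; 0 under every other alternative) and 63 to 415 genes whose groups did not overlap (45 with all libraries). Without WT7, an unadjusted p under 0.05 was reached by 61 higher and 191 lower genes. Over the same omissions the log2 fold change was -0.55 to 0.02 for *Acta2*, -1.06 to -0.37 for *Myl9* and -0.38 to 0.16 for *Mcam*. Library pairs ordered alike ranged over 10 to 30% for *Acta2* and *Col1a1* (20.0% with all libraries), 20.0 to 40.0% for *Acta2* and *Myl9* (33.3%) and 0 to 10% for *Acta2* and *Mcam* (6.67%). Quantile normalization and median scaling each gave 6.67% for *Acta2* and *Col1a1* and 13.3% for *Acta2* and *Mcam*, and the authors' log2 values gave 20.0% for *Acta2* and *Mcam*. The cause of these shifts was not tested. Leaving out any 1 library, *Myl9* and *Cdh5* kept 80.0 to 90.0% and *Mcam* and *Col1a1* 80.0 to 100% of pairs ordered alike. A pseudocount of 0.1 gave -0.34, -0.76 and -0.10 for *Acta2*, *Myl9* and *Mcam*. Low FPKM values and 3 libraries a group limit all of these.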
